A study of Homo sapiens with 3 samples.

Results

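The genes described here are 50 human genes of interferon signalling and innate nucleic acid sensing, read in wild-type NCI-H1975 cells, an established lung adenocarcinoma line. They were taken by gene symbol from a list of interferon receptors, Janus kinases, STAT and IRF transcription factors, nucleic acid sensors and interferon-induced genes. All 50 had a row among the 60880 gene rows of the count table. The study set these parental cells against a derivative with acquired resistance to the multikinase inhibitor anlotinib, and also profiled the resistant cells with the AP-2 transcription factor gene TFAP2A knocked down. Values come from 1 library, wild-type RNA-seq replicate 2. The resistant and knockdown cells and the 2 wild-type ATAC-seq samples were not analysed here, so no cell states were compared, no p-value was computed and no value has a replicate check. Per the labels, the cells were wild type, carried no stated treatment, and grew in serum-containing RPMI medium.

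Interferons are secreted proteins that warn neighbouring cells of infection. A type I, type II or type III interferon binds its own receptor pair, the receptor-bound Janus kinases phosphorylate STAT proteins, and STAT and IRF factors carry the signal to DNA. The complex of STAT2, IRF9 and another STAT binds the interferon-stimulated response element (ISRE), whereas STAT dimers bind the gamma-activated site (GAS). Sensors of foreign or misplaced nucleic acid, such as RIG-I, MDA5 and cGAS, act upstream and switch on the interferon genes through the adaptors MAVS and STING and the kinase TBK1. Epithelial cells of the lung hold both arms, and many of the induced proteins block a step of virus entry, replication or release.

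The promoters of the induced genes are shown first, because they are what the pathway acts on. RefSeq promoter windows (GRCh38.p14, 250 bases before to 50 after the annotated start) were given for 38 of the 50 genes, all but IFNAR2, IRF2, IRF3, IRF7, DHX58, CGAS, STING1, IFIT2, IFITM2, MX2, OAS2 and OASL. Each window was searched on both strands for the ISRE core, GAAA then any 2 bases then GAAA (on the other strand TTTC, any 2 bases, TTTC), and for the GAS core, TTC then any 3 bases then GAA, which reads the same on both strands. The 2 whole upstream windows below belong to the ubiquitin-like gene ISG15 and to IFITM3, the gene with the most reads of the 50. They are written in transcript orientation from base -250 to base -1, with each ISRE core in capitals.
ISG15 (chr1:1013247-1013496, plus strand): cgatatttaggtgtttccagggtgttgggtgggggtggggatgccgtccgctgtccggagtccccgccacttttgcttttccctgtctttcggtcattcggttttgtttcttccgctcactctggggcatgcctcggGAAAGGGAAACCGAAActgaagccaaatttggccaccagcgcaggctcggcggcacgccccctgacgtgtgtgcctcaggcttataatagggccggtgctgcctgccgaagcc
IFITM3 (chr11:320861-321110, minus strand): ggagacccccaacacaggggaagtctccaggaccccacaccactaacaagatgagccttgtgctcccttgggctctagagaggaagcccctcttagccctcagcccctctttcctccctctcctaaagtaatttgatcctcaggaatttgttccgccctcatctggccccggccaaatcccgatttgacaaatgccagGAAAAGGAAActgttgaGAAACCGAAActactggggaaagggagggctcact
Both windows hold 2 ISRE cores, and both hold the core GAAACCGAAA. In ISG15 the cores begin at -113 and -107 and share bases, and in IFITM3 they begin at -52 and -35.

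Shorter stretches, with 20 bases on each side of the outermost cores where these lie before the start, show how the same letters recur in other induced genes and in 1 sensor gene and 1 inhibitor gene. Capitals again mark the ISRE cores.
IFIT1 (chr10:89392487-89392549, plus strand): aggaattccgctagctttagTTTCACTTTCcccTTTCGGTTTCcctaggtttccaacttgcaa
IFIT3 (chr10:89327821-89327904, plus strand): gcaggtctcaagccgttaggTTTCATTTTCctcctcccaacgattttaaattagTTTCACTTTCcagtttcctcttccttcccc
IFI6 (chr1:27672256-27672368, minus strand): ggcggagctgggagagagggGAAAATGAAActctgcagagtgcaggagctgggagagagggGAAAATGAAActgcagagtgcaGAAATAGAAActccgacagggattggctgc
IFI27 (chr14:94110608-94110670, plus strand): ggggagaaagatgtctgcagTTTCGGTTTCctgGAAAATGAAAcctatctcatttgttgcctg
IFI44L (chr1:78620264-78620404, plus strand): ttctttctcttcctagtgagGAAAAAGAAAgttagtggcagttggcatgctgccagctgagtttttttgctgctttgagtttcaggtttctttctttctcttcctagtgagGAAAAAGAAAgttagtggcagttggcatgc
BST2 (chr19:17405725-17405780, minus strand): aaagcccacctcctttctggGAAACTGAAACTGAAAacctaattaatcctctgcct
OAS3 (chr12:112938311-112938473, plus strand): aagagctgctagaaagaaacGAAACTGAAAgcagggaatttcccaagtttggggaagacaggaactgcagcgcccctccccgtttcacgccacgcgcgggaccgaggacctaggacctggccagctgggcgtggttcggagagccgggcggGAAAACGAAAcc
IFIH1 (chr2:162318685-162318863, minus strand): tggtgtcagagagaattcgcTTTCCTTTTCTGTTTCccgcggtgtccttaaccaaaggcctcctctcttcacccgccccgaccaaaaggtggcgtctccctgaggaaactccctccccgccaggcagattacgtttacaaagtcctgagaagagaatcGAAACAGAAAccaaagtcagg
SOCS1 (chr16:11256288-11256337, minus strand): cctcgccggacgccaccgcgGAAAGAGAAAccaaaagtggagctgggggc
IFIT1 and IFI27 carry the core of ISG15 and IFITM3 on the other strand, as TTTCGGTTTC. In IFI44L a stretch of 85 bases occurs as 2 copies in the window, 91 bases apart, and each copy holds 1 of the 2 cores. In IFI6 a repeat of 29 bases holds 1 of its 3 cores in each copy. The next 2 stretches, from the transcription factor genes IRF1 and IRF9, show the GAS core in capitals.
IRF1 (chr5:132490869-132490917, minus strand): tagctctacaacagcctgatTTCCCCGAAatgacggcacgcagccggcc
IRF9 (chr14:24161182-24161230, plus strand): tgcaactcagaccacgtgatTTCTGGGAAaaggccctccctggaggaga
Neither of these windows held an ISRE core.

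Of the 22 induced genes, 17 had a promoter window, and 15 of these (88.2%) held an ISRE core, 11 of them at least 2 in 1 window. Among 15238 protein-coding genes with a window, 4.19% held one, and of all 35116 windows 3.57% did. The genes were listed as interferon-induced before the search, so the letters describe the list and are no evidence of a site in use in these cells. The core GAAACTGAAA, read in either direction, occurred in 7 induced genes (BST2, IFI44, IFIT3, IFIT5, IFITM1, ISG20 and OAS3), and GAAACCGAAA in 6 (IFI27, IFIT1, IFIT5, IFITM3, ISG15 and MX1). IFI35 and OAS1 held no ISRE core in these windows. Outside the induced genes, an ISRE core was found in 2 of 7 sensors and adaptors (IFIH1 and TLR3) and in SOCS1 of the 2 inhibitors, and in none of the 4 receptor, 3 kinase and 5 factor genes with a window. A GAS core was found in 10 of the 38 genes (26.3%), against 9.04% of protein-coding genes, and in 4 of the 10 (IFITM1, IFI27, MX1 and BST2) it overlapped an ISRE core.

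**Figure D1:**
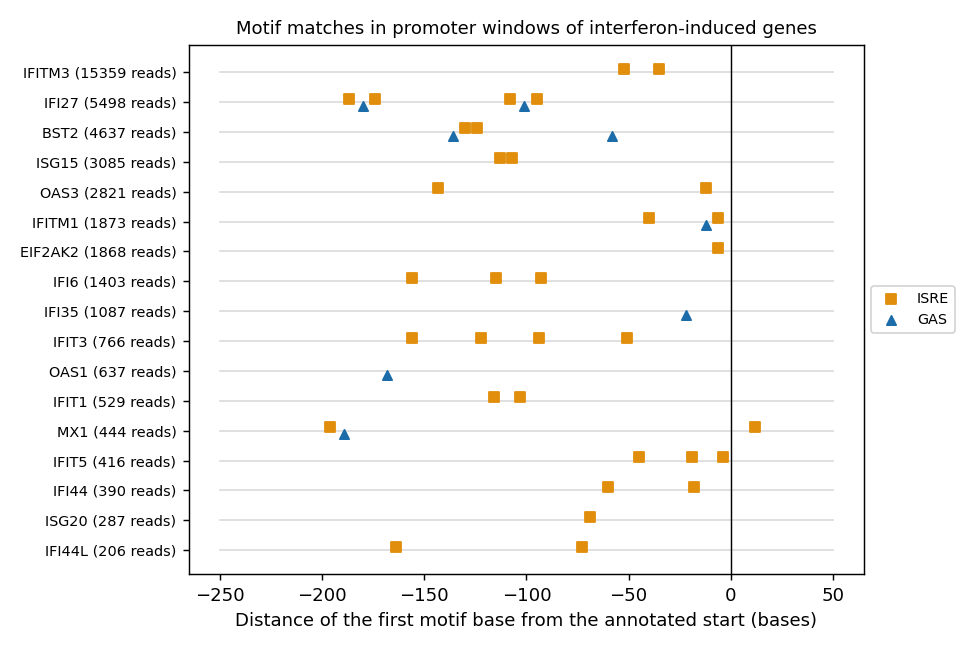
Positions of ISRE cores (squares) and GAS cores (triangles) in the promoter windows of the 17 induced genes that had one, ordered from most to fewest reads, with the distance of the first motif base from the annotated start in bases on the x axis. Windows of genes with several annotated starts are drawn on 1 line, so a single stretch can appear at more than 1 distance (IFI27, IFI44). All but 1 of the ISRE cores, that of MX1 at 12, begin before the start.

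The library held 25012733 counts, and a gene was called detected from 10 counts upward, as were 13279 of 19056 protein-coding genes. Levels are given in CPM (counts per 1000000 counts of the library), with 95% Poisson intervals that cover counting error only. At this depth 1 count equals 0.04 CPM. These levels carry no correction for the length of a transcript, so any order of genes below is a ranking by reads only. The cell type matched its label: all 7 epithelial markers were detected, with 65584 counts for KRT8 and 4961 for EPCAM, as were the lung lineage genes NKX2-1 with 2926 and NAPSA with 595. Of 9 leukocyte markers 8 were under the minimum: PTPRC and LYZ had 2 and 1 counts, and CD3D, MS4A1 and AIF1 were at 0. The plasmacytoid dendritic cell genes CLEC4C and LILRA4 were at 0 and IL3RA had 9 counts, and of 3 fibroblast and 3 endothelial markers only VWF, with 10 counts, reached the minimum.

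Nearly the whole set was detected, at read numbers spread across the range of the cell. Of the 50 genes 48 were detected (96%), against 69.7% of protein-coding genes, and all 50 had at least 1 count, against 78.8%. The 50 genes were chosen with earlier results of these data known, so the difference describes the list and was not tested. The 2 under the minimum were the Toll-like receptor genes TLR3 and TLR4. The detected genes had a median of 28.4 CPM, close to the 26.4 CPM of all detected protein-coding genes, and 25 of the 50 lay above the median of those genes, 660 counts. Together the 50 genes took 86937 counts, or 0.348% of the library (95% binomial interval 0.345 to 0.350). The 5 genes with the most reads, IFITM3, MAVS, TYK2, IFI27 and BST2, held 50.8% of those counts. The 22 induced genes held 51.9%, the sensors and adaptors 19.0%, the STAT and IRF factors 12.8%, the kinases 12.3%, the receptors 3.09% and the inhibitors 1.04%. Counts from 100 up to 1000 were found for 26 of the genes, 1000 or more for 18 and under 100 for 6.

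**Figure D2:**
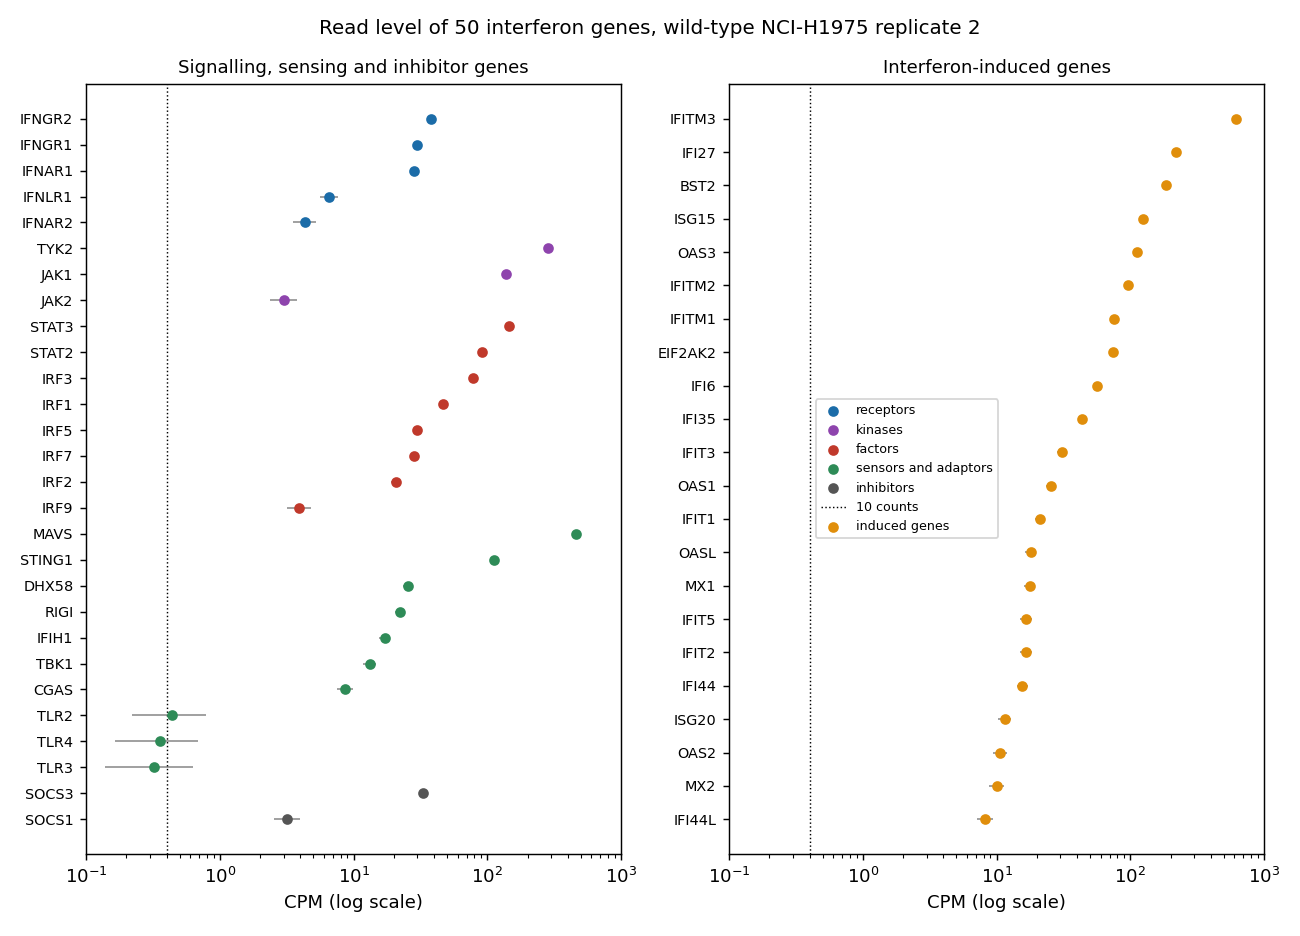
CPM on a log axis for each of the 50 genes, with signalling, sensing and inhibitor genes on the left, the 22 induced genes on the right, and colours for roles. Points are the single library, bars are 95% Poisson intervals (hidden by the point where narrow), and the dotted line marks 10 counts. IFITM3 stands highest at 614 CPM, and the 3 Toll-like receptor genes lie at the dotted line, from 0.320 to 0.440 CPM.

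All 5 receptor genes, including those of both chains for type I and type II interferon, were detected, against 69.7% of protein-coding genes. IFNAR1, the chain of the type I receptor that TYK2 binds, had 711 counts (identifier ENSG00000142166.12_3), or 28.4 CPM (95% interval 26.4 to 30.6). Its partner IFNAR2, the chain that binds interferon most tightly, had 108 counts, or 4.32 CPM (3.54 to 5.21). IFNGR1 and IFNGR2, the ligand-binding and signalling chains for interferon gamma, had 750 and 951 counts, or 30.0 CPM (27.9 to 32.2) and 38.0 CPM (35.6 to 40.5). The reads of the interferon gamma pair were closer together than those of the type I pair, though the intervals overlapped in neither pair. Without a correction for length this is no comparison of transcript levels. IFNLR1, the chain particular to type III interferon and largely restricted to epithelial cells, had 165 counts, or 6.60 CPM (5.63 to 7.68). IL10RB, the chain it shares with interleukin receptors and not one of the 50 genes, had 8 counts. In RefSeq both IFNAR2 and IL10RB overlap a read-through gene, IFNAR2-IL10RB, which had 1 count. No source used here says how reads that fall in several genes were counted, and the part of this overlap in the counts of IFNAR2 and IL10RB was not tested.

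Of the receptor-bound kinases, 2 had many reads and 1 had few. TYK2 had 7134 counts (ENSG00000105397.13_4), or 285 CPM (279 to 292), more than 96.1% of detected protein-coding genes. JAK1, which serves type I, II and III receptors alike, had 3443 counts, or 138 CPM (133 to 142). JAK2, the kinase paired with IFNGR2, had 75 counts, or 2.998 CPM (2.36 to 3.76), more than only 13.6% of detected protein-coding genes.

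All 8 STAT and IRF factors were detected, against 69.7% of protein-coding genes. Of the 8 factors, 6 lay above the median of detected protein-coding genes. STAT3, which also carries interleukin 6 family signals, had 3631 counts, or 145 CPM (140 to 150). STAT2, which acts in the response to type I and III interferon, had 2289 counts, or 91.5 CPM (87.8 to 95.3). Its DNA-binding partner IRF9 had 98 counts, or 3.92 CPM (3.18 to 4.77). RefSeq places no other gene over IRF9, but the annotation the authors counted with is not stated, and the part of shared reads in this low value was not tested. IRF3, the factor that TBK1 activates after nucleic acid sensing, had 1952 counts, or 78.0 CPM (74.6 to 81.6). IRF7, which amplifies interferon alpha production, had 711 counts, or 28.4 CPM (26.4 to 30.6). IRF1, an activator, had 1173 counts, or 46.9 CPM (44.3 to 49.7), and IRF2, which competes with it for the same sites, had 523, or 20.9 CPM (19.2 to 22.8). IRF5, best known from myeloid and B cells, had 742 counts, or 29.7 CPM (27.6 to 31.9). IRF3 overlaps BCL2L12 in RefSeq, which had 642 counts, and whether shared reads moved either value was not tested.

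Transcripts of the cytosolic sensing routes were detected, and the 3 Toll-like receptor genes among the 50, TLR2, TLR3 and TLR4, were at the limit of detection. Of 10 sensors and adaptors 8 were detected, against 69.7% of protein-coding genes. MAVS, the mitochondrial adaptor of the RNA route, had 11508 counts (ENSG00000088888.17_2), or 460 CPM (452 to 469), more than 98.1% of detected protein-coding genes. Its 3 upstream RNA helicases had similar and lower read numbers: DHX58, a regulator without signalling domains, had 634 counts, or 25.3 CPM (23.4 to 27.4), RIGI, the sensor of RNA ends, had 553, or 22.1 CPM (20.3 to 24.03), and IFIH1, which encodes MDA5, the sensor of long RNA duplexes, had 429, or 17.2 CPM (15.6 to 18.9). On the DNA route, STING1 had 2797 counts, or 112 CPM (108 to 116), and CGAS, the enzyme that makes its cyclic dinucleotide ligand, had 215, or 8.60 CPM (7.48 to 9.82). TBK1, the kinase shared by both routes, had 330 counts, or 13.2 CPM (11.8 to 14.7). In both routes the adaptor gene thus had more reads than the sensor genes above it.

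TLR2, the receptor for bacterial lipoproteins, had 11 counts, or 0.440 CPM (0.220 to 0.787), just inside the minimum. TLR4, the receptor for bacterial lipopolysaccharide, had 9 counts, or 0.360 CPM (0.165 to 0.683), and TLR3, the endosomal receptor for RNA duplexes, had 8 counts, or 0.320 CPM (0.138 to 0.630). The intervals of all 3 overlap, so they cannot be ordered at this depth, and a side of the minimum says little for any of them.

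All 22 induced genes were detected, against 69.7% of protein-coding genes. They ranged from 206 to 15359 counts and had their median at 28.0 CPM. The interferon-induced transmembrane genes, whose products block fusion of entering viruses, included the induced gene with the most reads. IFITM3 had 15359 counts (ENSG00000142089.15_4), or 614 CPM (604 to 624), IFITM2 had 2396, or 95.8 CPM (92.0 to 99.7), and IFITM1 had 1873, or 74.9 CPM (71.5 to 78.4). These 3 held 22.6% of the counts of all 50 genes. They resemble each other closely in sequence, and reads that fit more than 1 of them could have been split or dropped, so their separate values are uncertain.

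IFI27 and IFI6, small hydrophobic proteins of 1 family, had 5498 counts, or 220 CPM (214 to 226), and 1403 counts, or 56.1 CPM (53.2 to 59.1). BST2, known as tetherin because it holds budding virus at the cell surface, had 4637 counts, or 185 CPM (180 to 191). ISG15, which is conjugated to other proteins much as ubiquitin is, had 3085 counts (ENSG00000187608.9_5), or 123 CPM (119 to 128). With IFITM3 these genes, apart from IFI6, were the 4 induced genes with the most reads. ISG20, an RNA exonuclease, had 287 counts, or 11.5 CPM (10.2 to 12.9). IFI35, a leucine-zipper protein, had 1087 counts, or 43.5 CPM (40.9 to 46.1).

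The IFIT genes, whose products bind foreign RNA ends or stall translation, were near each other in reads. IFIT3 had 766 counts, or 30.6 CPM (28.5 to 32.9), IFIT1 had 529, or 21.1 CPM (19.4 to 23.0), and IFIT5 and IFIT2 had 416 and 415, or 16.6 CPM each (15.1 to 18.3 and 15.03 to 18.3). In RefSeq the spans of all 4 overlap that of LIPA, a lysosomal lipase gene with 2600 counts. No source used here says whether the counting used strand, and the part of LIPA reads in these values was not tested.

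The oligoadenylate synthetase genes differed more among themselves. OAS3 had 2821 counts, or 113 CPM (109 to 117), OAS1 had 637, or 25.5 CPM (23.5 to 27.5), and OAS2 had 265, or 10.6 CPM (9.36 to 11.95). OASL, a relative that lacks the enzyme activity, had 450 counts, or 17.99 CPM (16.4 to 19.7). EIF2AK2, which encodes the RNA-activated kinase PKR that halts translation, had 1868 counts, or 74.7 CPM (71.3 to 78.1). It overlaps GPATCH11 in RefSeq, which had 421 counts, as IFNGR2 overlaps TMEM50B with 190 counts and JAK1 overlaps RAVER2 with 178, and an antisense gene, IFITM3-AS1, is annotated over IFITM3. The part of these overlaps in the values was not tested.

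IFI44L and MX2 had the fewest reads of the induced genes. The dynamin-like GTPase genes MX1 and MX2 had 444 and 251 counts, or 17.8 CPM (16.1 to 19.5) and 10.0 CPM (8.83 to 11.4). IFI44 had 390 counts, or 15.6 CPM (14.1 to 17.2), and IFI44L had 206, or 8.24 CPM (7.15 to 9.44). The 15 induced genes with an ISRE core in a window ranged from 206 to 15359 counts with a median of 1403. IFI35 and OAS1, without one, had 1087 and 637, and 2 genes are too few for a comparison. The 5 induced genes without a window are not in these numbers. Over all 38 genes with a window, the median was 647.5 counts with an ISRE core and 746 without.

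Of the inhibitors of Janus kinases, SOCS3 had 824 counts, or 32.9 CPM (30.7 to 35.3). SOCS1, a brake on interferon receptor signalling, had 80, or 3.20 CPM (2.54 to 3.98). SOCS1 was therefore among the 6 of the 50 genes with fewer than 100 counts, along with IRF9, JAK2 and the Toll-like receptors.

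The rest of the pathway was read from 5 further lists with 90 genes, of which 62 were detected (68.9%), against 69.7% of all protein-coding genes. That pooled share joined unlike lists, with 4.76% detected for the ligands and from 62.5% to 100% for the others. The interferon genes themselves were almost without reads. Of 21 ligand genes, only IFNE, an interferon of epithelia known from the reproductive tract, was detected, with 28 counts, or 1.12 CPM (0.744 to 1.62). Overlap with other genes was not checked for the ligands, so the part of shared reads in this low value was not tested. IFNB1 had 1 count and IFNL1 had 2, and the 13 interferon alpha genes, IFNG, IFNK, IFNW1, IFNL2 and IFNL3 were at 0, which allows up to 0.12 CPM each by the limit of 3 counts. The interferon alpha genes resemble each other closely, so reads shared between them could have been dropped and their separate zeros are uncertain.

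Of 35 further induced genes 34 were detected, against 69.7% of protein-coding genes. Their median was 31.1 CPM, and GBP4 was under the minimum with 5 counts. LGALS3BP, a secreted glycoprotein, had 24223 counts, or 968 CPM, ADAR, the RNA editing enzyme, had 12923, or 517 CPM, and TRIM56 had 5485, or 219 CPM. Of 16 further sensors and adaptors 12 were detected (75%), near the 69.7% of protein-coding genes. TRIM25, the ubiquitin ligase of the RIG-I route, led with 7558 counts, followed by IFI16 with 4966 and NLRC5 with 3654. The endosomal receptor genes TLR7, TLR8 and TLR9 and the sensor ZBP1 were at 0, whereas TLR6, TLR5 and TLR1 had 152, 103 and 22 counts. Of 8 further factors and receptors 5 were detected (62.5%), also near the 69.7% of protein-coding genes. STAT6 had 8475 counts and STAT5B 2109, while the leukocyte factors IRF4 and IRF8 had 0 and 3. All 10 further negative regulators were detected, against 69.7% of protein-coding genes. The phosphatase genes PTPN1 and PTPN11 led with 3075 and 2529 counts, followed by PIAS3 with 1681.

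**Figure D3:**
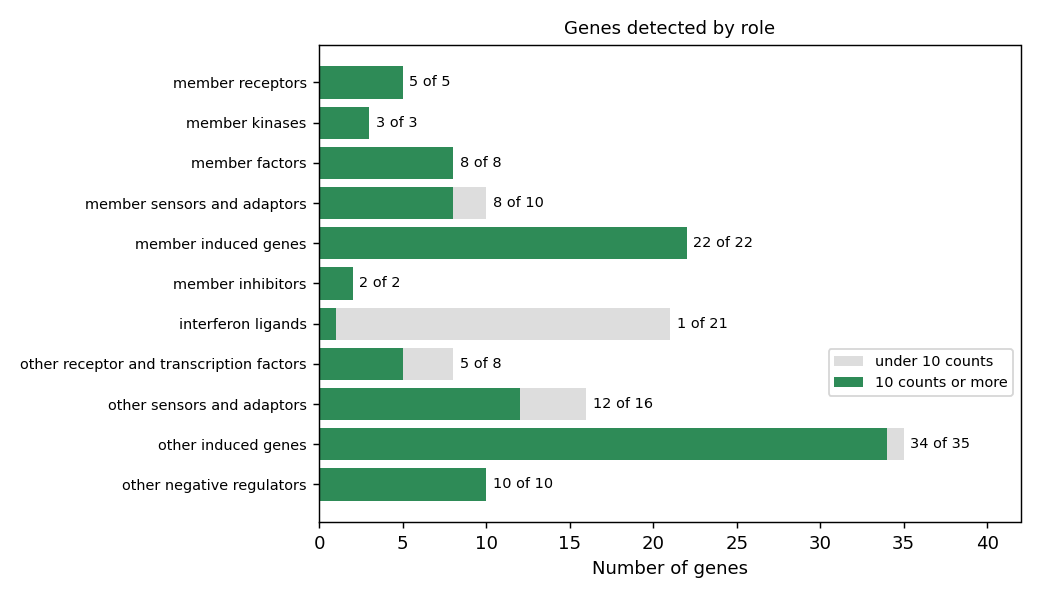
Number of genes with at least 10 counts (green) and under 10 counts (grey) for each role among the 50 genes (top 6 bars) and in the 5 further lists (lower bars). The interferon ligands stand apart with 1 of 21 detected, next to 22 of 22 and 34 of 35 for the induced genes. By the same rule 69.7% of all protein-coding genes were detected.

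**Figure D4:**
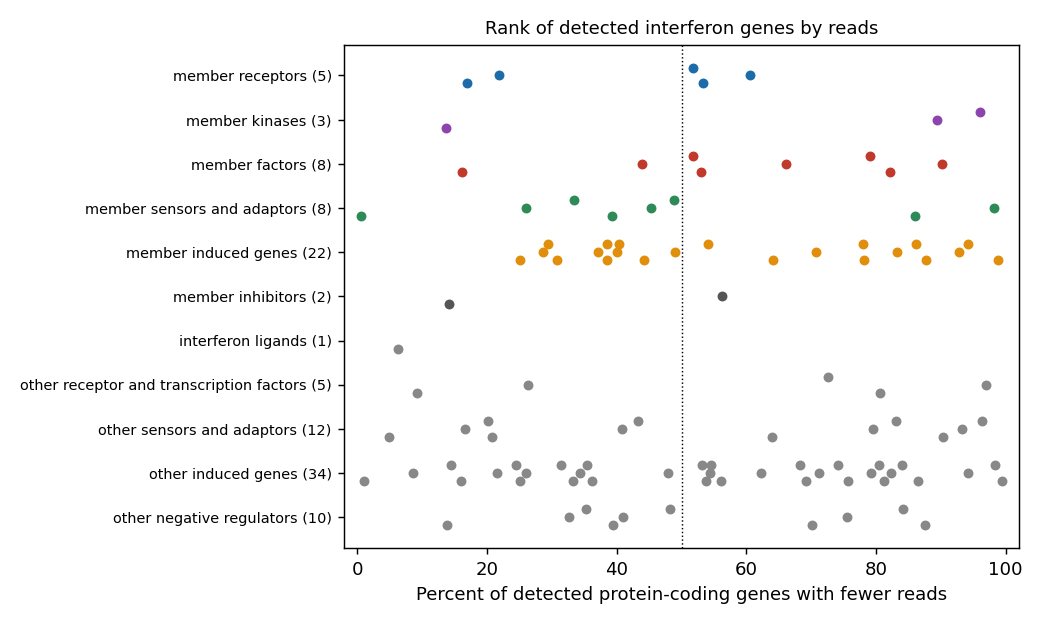
Rank by reads of each detected gene, as the percent of detected protein-coding genes with fewer reads, with the 50 genes in colour and the 5 further lists in grey (number detected in brackets, vertical offsets within a role only separate points). The dotted line marks the median of detected protein-coding genes, and the 22 induced genes lie from 25.1% to 98.8%.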

How the data were processed

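Gene-level read counts of 1 RNA-seq library were used. The authors deposited raw whole-number counts per gene with Ensembl identifiers, not normalised. Per the submitters' processing notes, the tools were STAR and featureCounts, with Bowtie2 (2.3.3.1) and MACS2 (2.1.1.20160309) and also deepTools (3.3.0), on build hg19, without stated roles. Per the labels' protocols, a directional NEBNext library was made from total RNA. The annotation release, strand setting and handling of shared reads are stated in no source used here. Identifiers were matched without version to current symbols (56373 of 60880 rows, 99.8% of counts), and gene types and overlaps came from RefSeq (GRCh38.p14), for names and neighbours only.

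Counts were divided by the library total to give CPM, with exact Garwood 95% Poisson and Clopper-Pearson binomial intervals. A count of 0 is given as a limit of 3 counts. The library had no stated molecular identifiers, so intervals and limits cover counting error only. Every one of the 50 genes is named, and of the further lists the 3 genes with the highest counts and others named after their counts were seen. Some genes covered by this rule are not reported here. The genes and lists were chosen with earlier results of these data known. Ratios per coding length and protein identities were planned and not run, because no protein sequences were used here. Intervals and the motif search were tested on simulated data. The work used SciPy 1.17.1, NumPy 2.4.6 and pandas 2.3.3 under Python 3.11.15, with figures from Matplotlib 3.10.9.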

Additional observations from a re-analysis of the deposited data

How the results depend on the processing

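The number of the 50 genes detected was 50 at a minimum of 1 count and 47 at a minimum of 50 counts, of 1 CPM or after random thinning to 50% of counts, and of the 90 further genes it was 67, 57, 60 and 61 under those settings. The median of detected genes among the 50 stayed inside the interval of its middle genes (26.4 to 30.6 CPM) under those settings and with totals that left out mitochondrial genes or the 10 highest counts, and was 30.9 CPM with a total over protein-coding genes only. The share of counts held by the 50 genes became 0.367% without mitochondrial genes, 0.374% without the 10 genes and 0.378% over protein-coding genes. These totals are smaller by construction, and every CPM is higher under them by a factor of 1.06, 1.08 and 1.09. That took 16, 23 and 28 of the 50 single values past their counting intervals, without changing any order. Ratios per coding length, with their alternatives, were not run. No paired analysis was possible because values of a single library were used. Depth limits TLR2, TLR3, TLR4 and the ligands, whose counts are from 0 to 28.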

Other observations

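Further families of antiviral and sensing genes, chosen after the counts of the 50 genes were seen, had mixed read numbers. Of 7 APOBEC3 cytidine deaminase genes 6 were detected, against 69.7% of protein-coding genes. Of these, APOBEC3D and APOBEC3H were near the minimum, with 19 and 12 counts. APOBEC3C led with 1982 counts, APOBEC3B had 1329 and APOBEC3A had 2. These genes resemble each other, so their separate values are uncertain. Among 5 Schlafen genes, SLFN5 had 3965 counts, SLFN13 had 646 and SLFN12 had 177, and SLFN11 and SLFN14 had 4 and 0. Of 5 NOD-like receptor genes, NLRX1, NLRP1 and NOD1 had 1136, 1046 and 556 counts, and NOD2 and NLRP3 had 1 and 0. The helicase genes DDX60 and DDX60L had 445 and 675 counts.

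Among genes that limit nucleic acid sensing, RNASEH2C had 1395 counts, RNASEH2B 191, ENPP1 88 and RNASEH2A 45. TREX1, the nuclease that degrades cytosolic DNA, was listed at 0. In RefSeq it overlaps ATRIP, which had 616 counts, and the part of this overlap in the 0 was not tested. Among close relatives of the induced genes, IFIT1B and IFITM5 were at 0 and IFITM10 had 660 counts. The 9 IFITM3 pseudogenes with a row held 22 counts together, 16 of them at IFITM3P2, against 15359 for IFITM3.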
